A study of Mus musculus with 8 samples.

Results

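The protamine genes Prm1, Prm2 and Prm3, and the transition protein genes Tnp1 and Tnp2, were examined in lists of H3K4me3 regions from mouse testis. H3K4me3 is histone H3 carrying 3 methyl groups on lysine 4, a mark of active promoters. The genes lie in 2 windows of the mm9 build: 4 of them (Tnp2, Prm3, Prm2 and Prm1) in chr16:10786500-10800000, and Tnp1 in chr1:73050000-73075000. All regions that overlapped a window were taken, and they fell into 8 of the 16519 regions obtained by merging the lists. These loci had been selected on earlier results from the same lists, in which a region of the chromosome 16 window ranked among the widest ones missing from the mutant. The values inside the windows are therefore a description and were not tested.

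The samples were whole testes of adult C57BL/6 mice of 2 genotypes, H3f3b WT/WT (WT) and H3f3b null (KO). The histone variant H3.3 is encoded by H3f3b and by a second gene. The labels do not say how the null allele was made or whether each library came from its own animal, so the spread between libraries may be technical. Of the 8 samples, 4 were H3K4me3 libraries, named WT 66, WT 74, KO 67 and KO 73, and 4 were inputs, which were not analysed here. The lists held 14078 and 14551 regions in WT and 10502 and 12497 in KO, and the read depth behind them is unknown. The tissue could not be checked against marker genes, because no gene positions in mm9 were used.

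During the last phase of sperm formation, haploid spermatids replace most of their histones. Transition proteins, encoded by Tnp1 and Tnp2, take the place of the histones first, and protamines, encoded by Prm1 and Prm2, then pack the DNA into the sperm head. Prm3 lies in the same cluster but codes for an acidic protein that is not a DNA-packing protamine. The genes are transcribed in round spermatids and their mRNAs are stored before translation. H3.3 is placed in chromatin independently of DNA replication.

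The 5 promoters are shown because a mark of active promoters is what these lists record. All 5 genes were matched by symbol in a RefSeq promoter table of the GRCm38.p6 build, and the 250 bases upstream of each start are given 5′ to 3′ on the gene's strand, which is the minus strand for all 5. Positions of that build are left out, since the regions are in mm9. Capitals mark TGANNTCA, a shape that includes the cAMP response element TGACGTCA and whose reverse complement has the same form, so that both strands are covered, and a TATA word (TATAA or TATATA, gene strand only) that begins from 45 to 20 bases upstream of the start. In Tnp2 these words overlap.
Prm1: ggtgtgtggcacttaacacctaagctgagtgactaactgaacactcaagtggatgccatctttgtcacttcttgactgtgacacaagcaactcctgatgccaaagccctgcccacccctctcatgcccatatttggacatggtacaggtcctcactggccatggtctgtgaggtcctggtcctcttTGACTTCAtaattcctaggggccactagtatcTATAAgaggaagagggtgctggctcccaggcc
Prm2: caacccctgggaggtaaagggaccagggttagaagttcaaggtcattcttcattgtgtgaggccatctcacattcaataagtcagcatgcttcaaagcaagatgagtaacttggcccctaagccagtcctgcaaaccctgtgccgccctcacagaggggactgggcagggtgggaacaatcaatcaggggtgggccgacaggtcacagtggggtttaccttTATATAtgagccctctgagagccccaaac
Prm3: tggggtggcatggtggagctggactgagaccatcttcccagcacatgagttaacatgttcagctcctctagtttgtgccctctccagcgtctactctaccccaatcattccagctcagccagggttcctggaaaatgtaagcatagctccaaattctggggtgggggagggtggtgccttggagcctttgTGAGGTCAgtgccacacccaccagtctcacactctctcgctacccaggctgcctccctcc
Tnp2: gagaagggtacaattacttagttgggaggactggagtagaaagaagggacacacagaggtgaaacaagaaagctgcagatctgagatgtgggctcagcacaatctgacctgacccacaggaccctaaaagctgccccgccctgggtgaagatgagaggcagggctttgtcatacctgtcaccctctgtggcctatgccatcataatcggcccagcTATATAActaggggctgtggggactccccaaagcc
Tnp1: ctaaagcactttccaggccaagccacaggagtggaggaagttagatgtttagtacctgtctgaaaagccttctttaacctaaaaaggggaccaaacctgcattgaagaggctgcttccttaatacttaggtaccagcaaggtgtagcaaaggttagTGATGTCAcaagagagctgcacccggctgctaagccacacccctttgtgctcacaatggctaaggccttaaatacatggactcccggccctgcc

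The promoters of the 5 genes held few CpG dinucleotides and differed in their motifs. Prm1 had 0 CpG in its 250 upstream bases, and Prm2, Prm3, Tnp1 and Tnp2 had 2 each. The median over 32841 RefSeq promoters was 6, and 29% of promoters had 2 or fewer. A TATA word stood in 3 of the 5 promoters, at 32 bases upstream in Prm1, at 29 in Prm2 and at 35 and 33 in Tnp2, against 4.31% of all promoters. TGANNTCA stood in 3 of the 5, at 64 bases upstream in Prm1, 60 in Prm3 and 94 in Tnp1, against 11.9% of all promoters. None of the 5 held the full TGACGTCA, which 1.55% of all promoters did. The motifs were chosen after the sequences had been seen, and a match is a description of letters and not a binding site. Among 18 other genes listed for histone exchange or gene control in spermatids, 15 had a promoter in the table. Their 18 promoters had a median of 15 CpG (0 to 35), a TATA word in 2 genes (H1f6 and H2ac1, both testis-specific histones) and TGANNTCA in 1 (H2al2a, a histone variant of late spermatids). H3K4me3 at those genes was not analysed here, for lack of mm9 positions.

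**Figure D1:**
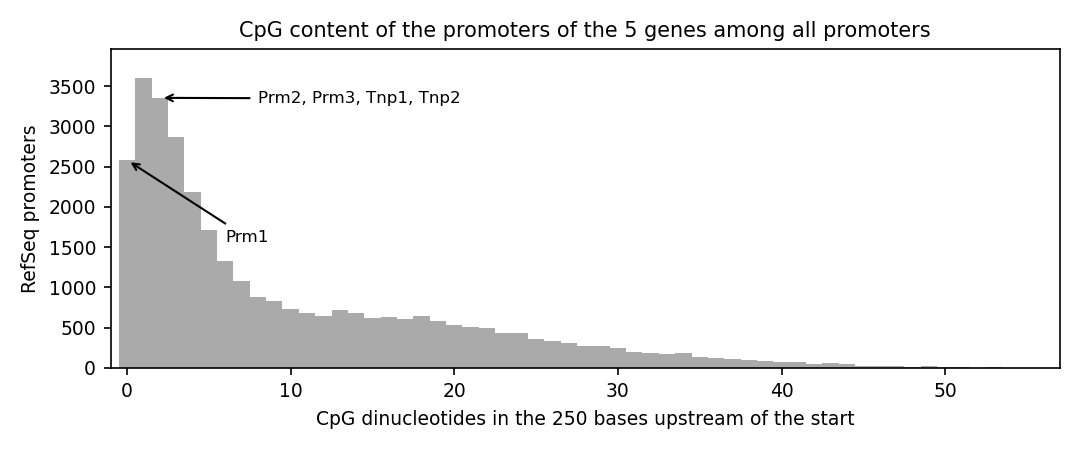
Number of RefSeq promoters (y axis) by their count of CpG dinucleotides in the 250 bases upstream of the start (x axis), over 32841 promoters. Arrows mark the bins of the 5 genes: Prm1 at 0, and Prm2, Prm3, Tnp1 and Tnp2 at 2, all below the median of 6.

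At the Prm and Tnp2 cluster, both WT lists covered close to 4 kb of a broad merged H3K4me3 region that neither KO list held. In WT 66 it was a single region, chr16:10789243-10793019, of 3777 bp. In WT 74 the same stretch was covered by 2 regions, chr16:10789289-10790461 of 1173 bp and chr16:10791140-10793931 of 2792 bp, with 678 bp between them, and 3965 bp in all. KO 67 and KO 73 had 0 bp there. The WT libraries lay close together, at 3871 ± 133 bp (SD, n = 2), and the genotypes did not overlap. Of all 12560 regions in both WT lists, 11.8% were likewise in neither KO list. Of the 713 with at least 3000 bp in each WT list, 1.68% were. A whole testis mixes many cell types, so fewer cells with the mark and less H3K4me3 per cell cannot be told apart in these lists. A difference in read depth, which is unknown, cannot be told apart from these either. A list holds only what passed the authors' peak calling, and 0 bp means that no region was called, not that the mark was absent.

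The WT libraries placed the broad region similarly on its left and less so on its right. Its left edges differed by 46 bp, and WT 74 reached 912 bp farther to the right. Of the WT 66 region, 80.8% was covered in WT 74, and 77% of the WT 74 length was covered in WT 66. In RefSeq's order of genes (GRCm38.p6), the cluster runs Tnp2, Prm3, Prm2, Prm1. Which of these genes the region covers was not determined, because that table is in another build.

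The broad region was of medium rank by the authors' score and of high rank by width. Its score, a number from the peak caller with no stated scale, was 146.8 in WT 66, at percentile 71.1 of that list, where the lowest score was 20.1. In WT 74 the right piece scored 132.5 (percentile 70) and the left piece 51.6 (percentile 34.4), and the lowest score of that list was 20.9. By width, it ranked 364 of 14078 in WT 66, and the right piece alone ranked 1069 of 14551 in WT 74. In KO the lowest scores listed were 20.2 and 20.3. The broad region stayed in both WT lists when the 4 lists were cut to the length of the shortest. Cutting can only remove regions, so this does not bear on its absence from KO, whose cause was not tested.

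In the deposited lists, few regions of this width were absent from both KO libraries. Of 12560 regions present in both WT lists, 11.8% were in neither KO list. Of the 713 with at least 3000 bp in each WT list, 12 were, 1.68% (95% exact binomial interval 0.873 to 2.92, counting error only), and the region at the protamine cluster was 1 of these 12. Another 660 of the 713 (92.6%) were present in all 4 lists, and the 713 had median lengths of 3768 bp (WT 66), 3726 bp (WT 74), 2474 bp (KO 67) and 2651 bp (KO 73). Lengths were summed over the pieces of a merged region. The wider WT 74 piece of the broad region at the cluster had 2792 bp, so no single WT 74 piece of it reached 3000 bp. By the smaller of its summed WT lengths, this broad region ranked 4 among the 1485 missing from both KO lists. In 14 of those 1485, itself included, the lower of the WT score percentiles, taken from the best-scoring piece, was at least as high. The locus had been selected for a region among the widest missing ones. Its rank by length and its place among the 12 therefore restate that choice. The interval does not cover the spread between libraries, and the shares moved with the lists used. For the broad regions the share was 7.04% without KO 73, 2.85% without WT 66 and 2.69% without WT 74, where fewer lists have to hold or lack a region. It was 6.39% with regions below the 25th percentile of score dropped, 5.33% when presence needed 20% of a merged region, and 3.78% with lists of one length. For all regions of both WT lists it came to 20.7% when WT 66 was left out, 18.2% when WT 74 was and 20.5% when KO 73 was, and it was 6.44% with lists of one length.

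**Figure D2:**
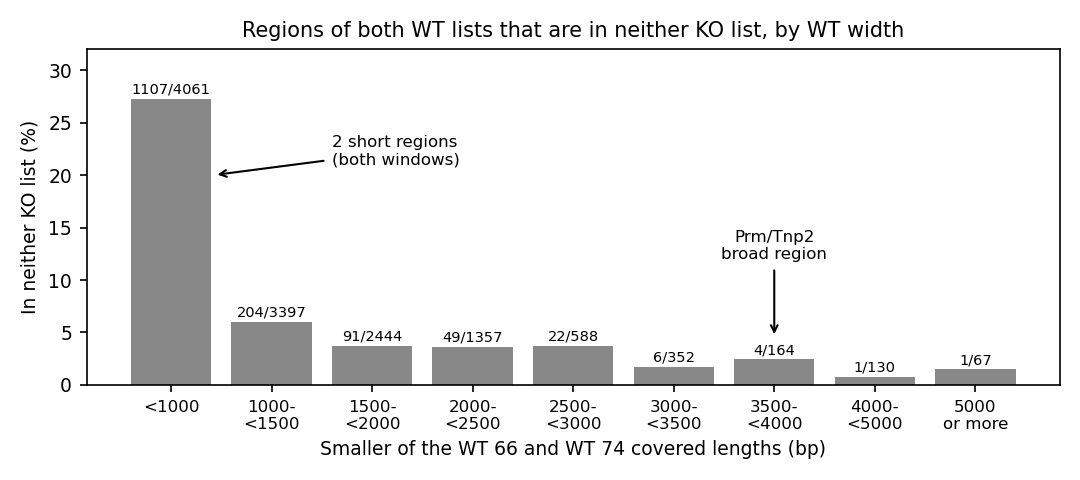
Share of regions of both WT lists that were in neither KO list (y axis, %), by the smaller of the WT covered lengths (x axis, bp), with the numbers missing and examined above each bar. The broad region of the Prm and Tnp2 window lies in the bin of 3500 to below 4000 bp, where 4 of 164 regions were missing. The short window regions held by both WT lists lie in the lowest bin, where 1107 of 4061 were. Short window regions of a single WT list are not included.

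The regions whose 4 values were most like those of the broad region in the Prm and Tnp2 window were also missing from both KO lists. Likeness was the sum over the 4 libraries of the absolute difference in covered length, across the 16518 other merged regions. The nearest, chr16:34649001-34653014, held 3886 and 3997 bp in the WT libraries with 0 bp in the null ones, and differed by 141 bp in all. The next were chr11:88710606-88714831, with WT lengths of 3804 and 3612 bp (a sum of 380 bp), and chr14:34864599-34868351, with 3300 and 3753 bp (689 bp). With 0 bp in each KO library, such matches follow from the measure and say nothing of shared control.

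A short region to the right of the broad one was likewise seen in WT alone. It spanned chr16:10798581-10799081 in WT 66 and chr16:10799018-10799518 in WT 74, each 501 bp, the narrowest width in any list, and these overlapped only in part. Its scores were 20.1 and 20.9, the lowest of their lists, which 450 regions of WT 66 and 746 of WT 74 shared. KO 67 and KO 73 had 0 bp. Short regions went missing often: 27.3% of those with less than 1000 bp in the narrower WT list were in neither KO list. That share spans all scores, and none was computed for regions at the lowest score. Another 105 merged regions had the same 4 values as this short region.

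H3K4me3 immediately to the left of the cluster was present in all 4 libraries. A strong region crossed the window's left edge, at chr16:10783634-10787223 in WT 66, chr16:10783855-10786986 in WT 74, chr16:10783995-10786947 in KO 67 and chr16:10783915-10786717 in KO 73. WT 66 and WT 74 had widths of 3590 and 3132 bp there, KO 67 and KO 73 widths of 2953 and 2803 bp. The means were 3361 ± 324 bp and 2878 ± 106 bp (SD, n = 2), a change of -14.4% in the null. The 2 null values were the lowest of the 4, as they were in 47.4% of the 9742 regions present in all 4 lists. That share spans all widths and counts order, not the size of a change. The 713 regions with at least 3000 bp in each WT list, this one included, had median lengths of 3768 bp (WT 66), 3726 bp (WT 74), 2474 bp (KO 67) and 2651 bp (KO 73). The region across the left edge ranked high in every list, at percentile 97.2 of WT 66, 97 of WT 74, 96.1 of KO 67 and 95.8 of KO 73. Socs1, a suppressor of cytokine signalling, is the coding gene next to Tnp2 on that side in RefSeq's order, after Clec16a and Dexi, and the region was not assigned to a gene. The regions most like it were chr5:114220363-114223722, chr8:13103613-13107056 and chr19:6362023-6365546, with summed differences of 340, 348 and 391 bp.

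In KO, the stretch without regions began where this strong region ended. In WT, the next region started 2019 bp (WT 66) and 2302 bp (WT 74) to its right. In KO 67 and KO 73 the next region lay 47878 and 47994 bp away, which skipped the whole protamine cluster. Between the nearest regions shared by all 4 lists, 47.5 kb apart, WT 66 held 2 regions of 4278 bp together, WT 74 held 3 of 4466 bp, and KO 67 and KO 73 held 0. Over the whole window, with the part of the left region inside it, WT coverage was 5001 and 4952 bp, KO coverage was 447 and 217 bp, and all of the latter came from that left region.

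**Figure D3:**
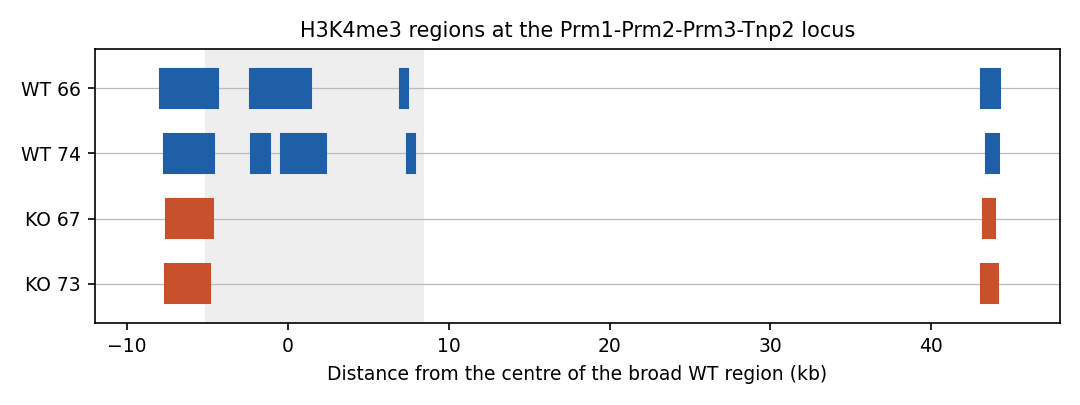
H3K4me3 regions (boxes, to scale) in each of the 4 libraries, by distance from the centre of the broad WT region (x axis, kb), with the window shaded. The left and the far right regions appear in all 4 rows, and the boxes between them in WT 66 and WT 74 alone.

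In the deposited lists, the nearest region to the right of the window did not separate the genotypes, and it served as the local control. Apart from the region across the left edge, which was counted with the window and not with its surroundings, it was the sole region within 100 kb of the window's edges. It lay 34.7 to 35 kb to the right, at chr16:10834710-10835881 in WT 66. WT 66 had 1172 bp of it and WT 74 had 763 bp, against 764 bp for KO 67 and 1060 bp for KO 73, so the genotypes overlapped. The means were 967.5 ± 289 and 912 ± 209 bp (SD, n = 2), a KO minus WT difference of -55.5 bp with p = 1 in a 2-sided exact permutation test, which cannot go below 0.33 with 2 against 2. By score it stood at percentile 42.5 of WT 66, 32.6 of WT 74, 16.5 of KO 67 and 40.8 of KO 73. It ranked below the broad region in WT 66 (percentile 71.1) and below the right piece of that region in WT 74 (percentile 70). The left piece in WT 74, at percentile 34.4, stood close to it. The neighbour was present in all 4 deposited lists and the broad region in WT alone, a contrast whose cause was not tested. With regions below the 25th percentile of score dropped, KO 67 lost it and the difference became -437.5 bp (exact permutation p = 0.667). The next region to the right, more than 100 kb from the window, had 1026 bp in WT 66 and 1077 bp in WT 74. KO 67 had 769 bp of it and KO 73 had 1012 bp. Both KO values were thus below both WT values, as in 47.4% of the regions present in all 4 lists. Rmi2, which codes for a subunit of a complex that resolves DNA recombination intermediates, is the next coding gene after Prm1 in RefSeq's order, followed by Litaf and Snn. To the left, the nearest region outside the window lay 240118 to 240349 bp away and was present in all 4 lists.

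**Figure D4:**
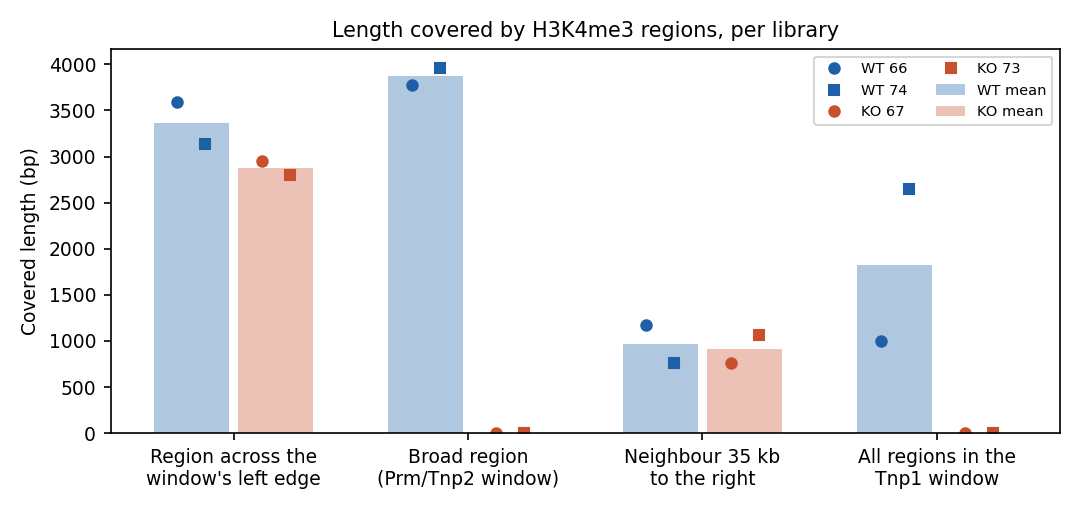
Covered length (y axis, bp) of 3 regions at the protamine cluster and of all regions in the Tnp1 window, with bars for the mean of each genotype (n = 2) and a point for each library. The broad region stands at 3777 and 3965 bp in WT and at 0 in KO, while its neighbours on both sides are covered in all 4 libraries.

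At Tnp1, which is on chromosome 1 apart from the other 4 genes, H3K4me3 regions were short and weak in WT and none was called in KO. WT 66 held 2 regions, chr1:73065178-73065678 and chr1:73073189-73073689, each 501 bp with the lowest score of its list (20.1). WT 74 held 4, of which the widest, chr1:73066541-73067470, measured 930 bp and scored 41.8 (percentile 27.6). The others in WT 74 were chr1:73071915-73072628 (714 bp, score 26.5), chr1:73065337-73065837 (501 bp, score 27.9) and chr1:73060277-73060777 (501 bp, score 20.9). In the whole window WT 66 covered 1002 bp and WT 74 covered 2646 bp, while KO 67 and KO 73 covered 0 bp. The WT libraries differed by more than the lower of them, at 1824 ± 1160 bp (SD, n = 2). How often a window of this length separates the genotypes in this way was not computed.

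The WT libraries agreed on a single stretch at Tnp1. Merging gave 5 regions in the window, of which chr1:73065178-73065837 was in both WT lists (501 bp in each) and the other 4 in a single one. Single-library regions were mostly missing from KO: of the 3230 merged regions in exactly 1 WT list, 74.3% were in neither KO list. All 4 single-library regions at Tnp1 were missing from KO. They lie in the same window and are not independent cases to set against that share. For the region of both WT lists the background is the 27.3% of short regions given above. With regions below the 25th percentile of score dropped, or with lists of one length, WT 66 kept 0 bp in the window and WT 74 kept 930 bp.

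**Figure D5:**
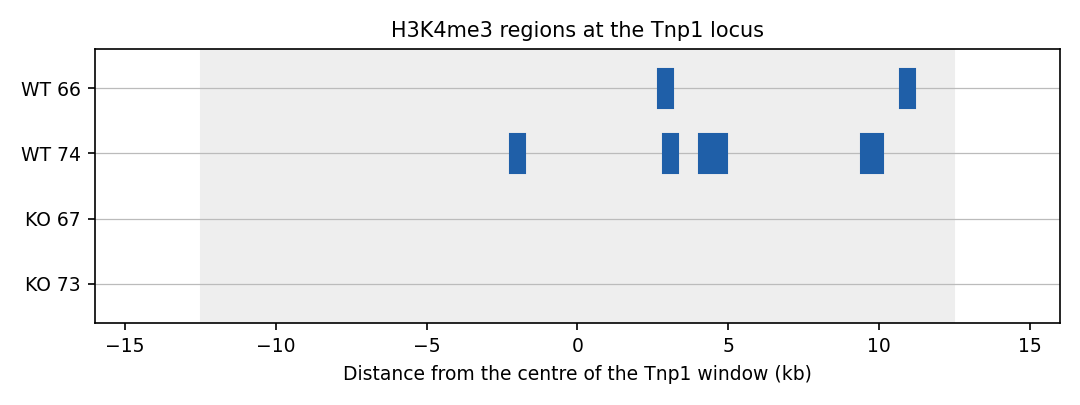
H3K4me3 regions (boxes, to scale) in each of the 4 libraries, by distance from the centre of the Tnp1 window (x axis, kb), with the window shaded. WT 66 has 2 boxes and WT 74 has 4, overlapping at 1 place, and the KO rows are empty.

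Tnp1 lay in a long stretch with few regions in any library. Within 100 kb of its window, all 4 libraries had 0 bp, so no local control was at hand there. The nearest region to the left, 291 kb away, was in all 4 lists. On the right, WT 66 and WT 74 each had a region of 501 bp 112 kb from the window, at score percentiles 7.25 and 6.68, while the next ones in KO 67 and KO 73 were 1210 and 1010 kb away. Between the nearest regions shared by all 4 lists, 1520 kb apart, WT 66 held 3 regions, WT 74 held 5, KO 67 held 0 and KO 73 held 1. The coding genes on either side of Tnp1 in RefSeq's order are Igfbp5 and Igfbp2, for binding proteins of insulin-like growth factors, with Rpl37a beyond them, and Tns1, Rufy4 and Cxcr2.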

How the data were processed

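H3K4me3 ChIP-seq of testis was deposited as 1 BED list of enriched regions per library. Bowtie, HOMER and the mm9 build are named per the submitters' processing notes; their versions, their settings and use of the inputs are unknown: not given in the sources used here. A score was deposited by the authors for each region; it has no stated scale and was used only to rank regions within a list. Starts and ends in bp were taken as the authors deposited them, with starts converted to count from 1.

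Regions overlapping a window by at least 1 bp were taken, and coverage was counted inside it. Lists were merged where regions overlapped or touched. Python 3.11.15, pandas 2.3.3 and scipy 1.17.1 were used, and the merging was tested on simulated lists. Window values are descriptions; coverage within 100 kb was compared by a 2-sided exact permutation test. Alternatives were a stricter score threshold, lists of one length, each library left out, 50 or 200 kb, 500 bp merging, 20% presence and a broad limit of 2000 bp. Named were the 5 genes, 3 coding genes on each side, all window regions, the nearest neighbours and the 3 most alike regions. The members, gene lists and rules were chosen with earlier results of these data known.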

Additional observations from a re-analysis of the deposited data

How the results depend on the processing

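The KO minus WT difference in covered length at the Prm and Tnp2 window, -4644.5 bp, kept its direction throughout. It was -4143.5 bp with regions below the 25th percentile of score dropped and with lists of one length, -4855 bp with regions counted whole, -4372 bp with only regions wholly inside the window (added after the data had been seen), and -4759.5 to -4529.5 bp with 1 library left out. At Tnp1 the difference of -1824 bp was -465 bp with the lower scores dropped and with lists of one length, and was -2646 bp when WT 66 was left out and -1002 bp when WT 74 was, so its size rests on which WT library is used. The neighbours of the Prm and Tnp2 window, at -55.5 bp, gave -437.5 bp with the lower scores dropped, where KO 67 lost the region, -216.5 bp at 200 kb (exact p = 0.667 for each), and -260 to 149 bp with 1 library left out, and were higher in KO without WT 66 (149 bp) and without KO 67 (92.5 bp). Those of Tnp1 gave 0 bp, but -501 bp at 200 kb (exact p = 0.33). The share of regions of both WT lists missing from both KO lists, 11.8%, was 6.44% with lists of one length, 12.6% when presence needed 20% of a region, and 13.8% to 20.7% with 1 library left out. For broad regions the 1.68% became 6.39% with the lower scores dropped, 3.78% with lists of one length, 5.33% with 20% presence, 3.12% from 2000 bp, and 2.1% to 7.04% with 1 library left out, the highest without KO 73. The causes were not tested. No paired analysis was possible because the WT and KO libraries share no number. Read depth is not given, so no detection limit could be set.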
